A study of Homo sapiens with 19 samples.

Results

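KUUUT elements are the 153 designed library members, of 3422 element names in all, whose names are exactly KUUUT with a 4-digit number and an orientation, fwd or rev, and with no substitution part. They come from 77 numbered loci, 76 of which were held in both orientations, and comprise 76 fwd and 77 rev elements. The labels do not explain the letters of the name, and no sequence or position of these elements was used here. Of the 153 elements, 117 were held by all 8 tables of values, 22 by set 2 only and 1 by set 1 only.

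QUASARR-seq reads a pair of barcodes, paBC and eaBC, for each element in one plasmid, measured here as RNA and plasmid DNA in the human leukaemia cell line K-562. The paBC is taken as the promoter read-out, and the enhancer read-out is that of the eaBC. Set 2 (CNPL-TRE202-TRE5-TRE6) paired its elements with the minimal promoters pGAPDH, pAPOBEC3F and pMYC in 1 plasmid pool, and set 1 (CNPL-TRE202-MRE) paired its elements with pMYC. Per set and read-out there were 2 libraries of RNA and 2 of DNA, or 16 together, from cells electroporated with 20 µg of plasmid library and harvested after 6 h; all groups share the cell line, the vector (pDEST-QUASARR-luc-gfp) and the treatment. Values of pGAPDH, pAPOBEC3F and pMYC in set 2 were read from shared libraries. Whether replicate 1 was a separate culture from replicate 2 is not given by the labels, so p-values measure only the spread between these libraries.

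Promoters hold the sites at which RNA polymerase II starts transcription and are mostly directional, whereas enhancers raise transcription from another promoter and are classically described as working in either orientation. Many elements can do both, and the response also depends on the promoter that receives the signal. A minimal promoter is meant to give little transcription alone. The barcode RNA per plasmid copy reads its own level together with what the tested element adds or takes away. The level of each minimal promoter without an element is not given here. GAPDH encodes a glycolytic enzyme made in nearly all cells, APOBEC3F a cytidine deaminase that restricts viruses, and MYC a growth-promoting transcription factor.

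Within a table, RNA columns summed to between 200722 and 10167588 reads and DNA columns to between 759171 and 10880944 reads, with 1 step of the deposited signal taken as 1 read and the reads of a set 2 library divided over the tables of its minimal promoters. The median KUUUT element had 3582 and 4158 RNA reads in the pGAPDH promoter table, and 82 and 95 in the pAPOBEC3F enhancer table. Reads are not independent molecules, so that statements on depth cover counting error only. Values below are the log2 ratio of RNA over DNA signal per replicate, given as mean ± SD (n = 2), in which 0 is the zero point of the deposited table. Over KUUUT elements the replicates correlated with r of 0.980 (pGAPDH), 0.983 (pAPOBEC3F), 0.980 (pMYC, set 2) and 0.993 (pMYC, set 1) in the promoter read-out. For the enhancer tables r was 0.822, 0.824, 0.816 and 0.959 in the same order of tables. The median SD of an element was 0.04 to 0.08 in promoter tables and 0.05 to 0.12 in enhancer tables. The libraries of one ratio share depth and elements, and these correlations are descriptions.

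In the promoter read-out, at the deposited zero points, most KUUUT elements were called active with pMYC and pAPOBEC3F, and with pGAPDH they were split between higher and lower calls. There the authors' deposited table called 56 of 149 tested KUUUT elements (37.6%) higher in RNA than in DNA with pGAPDH, against 36.3% of all elements. With pAPOBEC3F the authors' deposited table called 100 of 144 (69.4%) higher, against 50.7% of all elements, and with pMYC 93 of 139 (66.9%) in set 2, against 52.3%, and 99 of 130 (76.2%) in set 1, against 56.1%. The share of KUUUT elements called higher was thus near that of the whole table with pGAPDH and above it with the other minimal promoters. In the enhancer read-out the authors' deposited tables called higher 36 of 149 with pGAPDH (22.2% of all elements), 51 of 145 with pAPOBEC3F (30.1%), 73 of 139 with pMYC in set 2 (40.4%) and 96 of 130 with pMYC in set 1 (54.6%).

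Elements called lower in RNA than in DNA were most frequent with pGAPDH. The authors' deposited table called 68 of the 149 KUUUT elements lower in the pGAPDH promoter read-out, where 46.6% of all elements were called lower, and 26 in the enhancer read-out, where 18.5% were. In the promoter read-outs of the other minimal promoters the authors' deposited tables called lower 16 KUUUT elements with pAPOBEC3F (30.6% of all elements), 19 with pMYC in set 2 (27.8%) and 10 with pMYC in set 1 (26.0%). Among enhancer tables only 2, 3 and 4 were called lower in the authors' deposited tables, where 7.38%, 7.38% and 11.8% of all elements were. These small counts differed in a limma refit with single libraries left out, where the change of fit is included. In promoter tables, lower calls were 29 for pAPOBEC3F without RNA replicate 2, 12 for pMYC in set 2 without DNA replicate 2, and for set 1 they were 6 without DNA replicate 1 or without DNA replicate 2 and 17 without RNA replicate 1. In enhancer tables, pGAPDH had 9 lower calls without RNA replicate 2, pAPOBEC3F had 1 without DNA replicate 1 or without DNA replicate 2, 12 without RNA replicate 1 and 15 without RNA replicate 2, and its higher calls were 31 without DNA replicate 1. For pMYC in enhancer tables, lower calls were 0 without DNA replicate 1 or without DNA replicate 2, 8 without RNA replicate 1 and 7 without RNA replicate 2 in set 2, and 0 without DNA replicate 1, 1 without DNA replicate 2, 9 without RNA replicate 1 and 8 without RNA replicate 2 in set 1.

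The split into higher and lower calls depends on the zero point of each table. The deposited calls came from the authors' fit and the centred ones from a refit, so the changes below also include the change of fit. Measured from the median of all elements of the table, a limma refit called 84 KUUUT elements higher and 37 lower in the pAPOBEC3F promoter read-out, so that 69.4% of the calls were higher, in place of 86.2%. The same step gave 65.5% in place of 83.0% for pMYC in set 2 and 68.8% in place of 90.8% in set 1. In enhancer tables it gave 77.8% in place of 96.2% for pAPOBEC3F, 70.1% in place of 96.1% for pMYC in set 2 and 74.0% in place of 96.0% in set 1. For pGAPDH the split moved by less, to 53.4% in place of 45.2% in the promoter read-out.

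The levels behind these calls had the same order. The median KUUUT element had a promoter log2 ratio of −0.03 with pGAPDH, 0.56 with pAPOBEC3F, 0.50 with pMYC in set 2 and 0.79 with pMYC in set 1, beside medians of −0.07, 0.24, 0.24 and 0.39 over all elements. The quartiles of the KUUUT elements were −0.41 and 0.23 with pGAPDH, and 0.01 and 1.19 with pAPOBEC3F. The KUUUT enhancer medians were 0.01, 0.20, 0.30 and 0.47 in the same order of tables, beside −0.01, 0.09, 0.19 and 0.23 over all elements. A log2 ratio of at least 1 was reached by 2 KUUUT elements with pGAPDH, 46 with pAPOBEC3F, 34 with pMYC in set 2 and 49 with pMYC in set 1 in the promoter read-out. As enhancers 0, 12, 12 and 20 reached it. The share of all elements that reached this level is not given here. The highest KUUUT element stood below the highest element of the whole table in all 8 tables, for example 4.46 against 7.11 in the pAPOBEC3F promoter read-out and 1.00 against 2.18 in the pGAPDH enhancer read-out.

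Calls across tables were counted for KUUUT elements only, without shares over all elements, and so show nothing particular to the class. Of the 115 KUUUT elements tested in all 8 tables, the authors' deposited tables called 18 higher in all of them. A further view by read-out gave 38 called higher in all 4 promoter tables and 20 in all 4 enhancer tables of the authors' deposited tables. There were 14 called higher in no table, and 1 was called in neither direction in any of the authors' deposited tables. The authors' deposited tables called 6 lower in all 4 promoter tables (KUUUT0001.fwd, KUUUT0001.rev, KUUUT0014.rev, KUUUT0046.fwd, KUUUT0106.rev and KUUUT0157.rev), and 1 of them, KUUUT0014.rev, lower in all 4 enhancer tables as well.

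KUUUT0020 was the strongest locus of the class in most tables. In the pAPOBEC3F promoter read-out KUUUT0020.rev had RNA signals of 2802 and 2782 and DNA signals of 128 and 125, which are log2 ratios of 4.45 and 4.47. Its promoter ratios were 1.17 and 1.02 with pGAPDH, 3.45 and 3.39 with pMYC in set 2, and 4.08 and 3.91 with pMYC in set 1. Its enhancer ratios were 0.68 and 0.42 with pGAPDH, 2.12 and 1.75 with pAPOBEC3F, 2.24 and 1.96 with pMYC in set 2, and 2.61 and 2.48 in set 1. At the deposited zero points the element was thus active in every table. There the pGAPDH replicates did not overlap those of the other minimal promoters in either read-out, though the tables were scaled separately. KUUUT0020.fwd averaged 0.92 ± 0.03 with pGAPDH, 3.57 ± 0.03 with pAPOBEC3F, 2.91 ± 0.02 with pMYC in set 2 and 3.41 ± 0.11 in set 1 in the promoter read-out. As an enhancer it averaged 0.89 ± 0.06, 2.53 ± 0.04, 2.13 ± 0.03 and 2.60 ± 0.09 in the same order.

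KUUUT0015.fwd and KUUUT0019.rev were also called higher in all 8 of the authors' deposited tables, with most of their activity in the promoter read-out. KUUUT0015.fwd had promoter ratios of 0.98 and 0.92 with pGAPDH, 3.38 and 3.31 with pAPOBEC3F, 2.85 and 2.76 with pMYC in set 2 and 3.60 and 3.50 in set 1. Its enhancer ratios were 0.16 and 0.34, 0.80 and 0.57, 1.11 and 1.05, and 1.46 and 1.36 in the same order. The promoter ratios lay above the enhancer ratios in every table. KUUUT0019.rev averaged 0.93 ± 0.06, 3.35 ± 0.10, 2.59 ± 0.04 and 3.39 ± 0.14 in the promoter read-out and 0.20 ± 0.10, 0.95 ± 0.19, 1.02 ± 0.08 and 1.60 ± 0.02 in the enhancer read-out, in the same order.

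Loci held only by set 2 included strong elements with activity in both read-outs. KUUUT0043.fwd, tested with pGAPDH only, was the highest KUUUT element there, with promoter ratios of 1.19 and 1.31 and enhancer ratios of 1.10 and 0.90. KUUUT0110.rev had promoter ratios of 3.28 and 2.73 and enhancer ratios of 2.30 and 1.84 with pAPOBEC3F, on 53 RNA reads in the enhancer table. With pGAPDH it had 0.16 and 0.26 in the promoter read-out, not called in the authors' deposited table, and 0.86 and 1.03 in the enhancer read-out. KUUUT0021.fwd, another strong element of set 2, averaged 1.82 ± 0.02 in the promoter read-out and 1.29 ± 0.04 in the enhancer read-out with pAPOBEC3F, and 1.35 ± 0.01 and 1.61 ± 0.08 with pMYC.

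At the low end, KUUUT0014.rev was called lower in all 8 of the authors' deposited tables. Its promoter ratios were −0.92 and −0.96 with pGAPDH, −0.27 and −0.28 with pAPOBEC3F, −0.59 and −0.55 with pMYC in set 2 and −0.16 and −0.24 in set 1. Its enhancer ratios were −0.43 and −0.38, −0.71 and −0.33, −0.22 and −0.29, and −0.10 and −0.14 in the same order, all below 0. The lowest KUUUT elements of single tables were KUUUT0017.rev, at −1.36 and −1.67 in the pGAPDH promoter read-out on 308 RNA reads, and KUUUT0102.rev, at −0.89 and −0.94 in the pAPOBEC3F promoter read-out. KUUUT0017.rev was also the lowest in the set 1 promoter read-out, at −0.89 and −1.50, while its enhancer ratios were −0.16 and −0.03 with pGAPDH and −0.25 and 0.14 in set 1, neither called in the authors' deposited tables. Elements listed without a test were KUUUT0006.rev in both tables of set 1 and KUUUT0148.fwd in the pAPOBEC3F promoter table, with signals of at most 8.50 in any library. KUUUT0006.rev was listed at 0 in 1 RNA library of the set 1 enhancer read-out, which allows a signal of up to 3.26 at 3 reads.

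Orientation was compared within each table with limma, as the log2 ratio of fwd minus that of rev of the same locus. Fwd and rev values of 1 library entered the fit as separate values, without a term for the library. The p-values of orientation thus ignore that these values share libraries. In the promoter read-out more KUUUT loci were stronger as fwd than as rev. With pGAPDH, 33 of 72 loci were higher as fwd (40.5% of all loci) and 21 higher as rev (33.2%). With pAPOBEC3F 23 of 67 were higher as fwd (36.0%) and 15 as rev (21.9%), with pMYC in set 2 29 of 66 (39.0%) and 11 (22.8%), and with pMYC in set 1 29 of 64 (45.7%) and 8 (20.0%). The surplus of fwd was also that of all loci of these tables and is nothing particular to KUUUT. The median difference was 0.09 with pGAPDH, 0.04 with pAPOBEC3F, 0.17 with pMYC in set 2 and 0.20 in set 1. In either direction 54 loci were called with pGAPDH (73.8% of all loci), 38 with pAPOBEC3F (57.9%), 40 with pMYC in set 2 (61.9%) and 37 in set 1 (65.7%). The 37 calls of set 1 were 17 without DNA replicate 1 or without DNA replicate 2 and 57 without RNA replicate 1.

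Fewer loci were called between orientations in the enhancer read-out, among KUUUT loci and among all loci of these tables alike. With pGAPDH 4 of 72 loci were higher as fwd (3.50% of all loci) and 6 as rev (12.4%). With pAPOBEC3F there were 1 and 3 of 68 (3.37% and 5.05%), with pMYC in set 2 3 and 1 of 66 (3.78% and 7.18%), and with pMYC in set 1 7 and 13 of 64 (9.42% and 19.5%). The sums were 10 (15.9%), 4 (8.42%), 4 (11.0%) and 20 (29.0%), and at an unadjusted p under 0.05 the same tables gave 26, 13, 14 and 25 loci in either direction. The median size of the difference was 0.14, 0.20, 0.17 and 0.12 in the enhancer read-out, against 0.28, 0.28, 0.34 and 0.33 in the promoter read-out, in the same order. The median SE was 0.087, 0.17, 0.15 and 0.066 in the enhancer read-out, close to the median difference in the pAPOBEC3F and pMYC tables of set 2. These few calls fell or rose when 1 library was left out: with pGAPDH there was 1 without RNA replicate 1 or without RNA replicate 2. With pAPOBEC3F there were 0 without DNA replicate 1 or without DNA replicate 2 and 18 without RNA replicate 1 or without RNA replicate 2. With pMYC in set 2 there was 1 without DNA replicate 1 or without DNA replicate 2, 12 without RNA replicate 1 and 9 without RNA replicate 2, and in set 1 there were 7 without DNA replicate 1 or without DNA replicate 2 and 33 without RNA replicate 2.

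Of the 53 loci tested in all 4 promoter tables, 13 were higher as fwd in every one (KUUUT0010, 0015, 0022, 0023, 0037, 0048, 0053, 0071, 0090, 0106, 0113, 0140 and 0157) and 2 higher as rev in every one (KUUUT0019 and KUUUT0020). A further 7 loci were called in opposite directions in different promoter tables, and 3 were called in none. The shares of all loci with these patterns are not given here. KUUUT0019 had the largest call towards rev with pAPOBEC3F, with 1.89 for fwd and 3.35 for rev, a difference of −1.47 ± 0.09 (SE; limma, adjusted p = 5.01e-08). Its difference was −0.76 with pMYC in set 2 and −1.17 in set 1. KUUUT0020 differed by −0.89 ± 0.06 with pAPOBEC3F (SE; limma, adjusted p = 1.2e-07) although both orientations were among the strongest elements.

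KUUUT0053 had its lowest level as rev with pGAPDH. With pGAPDH, KUUUT0053.fwd had RNA signals of 711 and 706 and DNA signals of 756 and 771, against RNA signals of 300 and 306 and DNA signals of 829 and 870 for KUUUT0053.rev. The log2 ratios were −0.09 and −0.13 for fwd and −1.47 and −1.51 for rev, a difference of 1.38 ± 0.04 (SE; limma, adjusted p = 2.63e-20), the largest towards fwd among KUUUT loci of that table. Both were called lower in the authors' deposited table. With pAPOBEC3F the ratios were 0.80 ± 0.09 for fwd and −0.16 ± 0.02 for rev, and with pMYC in set 2 0.48 ± 0.08 and −0.52 ± 0.03. The step between the orientations was thus 0.95 with pAPOBEC3F, 0.99 with pMYC in set 2 and 0.97 in set 1. KUUUT0036 behaved alike in set 2, with 1.16 for fwd and −0.21 for rev with pMYC in the promoter read-out, a difference of 1.37 ± 0.06 (SE; limma, adjusted p = 3.13e-09). KUUUT0100 went the other way with pGAPDH, at −0.58 and −0.50 for fwd and 0.49 and 0.41 for rev, a difference of −0.99 ± 0.07 (SE; limma, adjusted p = 1.97e-13).

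Among the loci tested in all 4 promoter tables, those called in opposite directions in different tables were KUUUT0031, 0044, 0045, 0065, 0078, 0094 and 0108. KUUUT0044, strongly active in both orientations with pMYC, differed by −0.31 with pGAPDH, 0.33 with pAPOBEC3F, 0.24 with pMYC in set 2 and 1.12 ± 0.10 in set 1 (SE; limma, adjusted p = 4.09e-07). Whether these orientation differences differ between minimal promoters or sets was not tested.

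KUUUT0048 had opposite orientation preferences in the read-outs. With pAPOBEC3F its promoter ratios were 1.91 and 1.91 for fwd and 0.45 and 0.68 for rev, while its enhancer ratios were −0.32 and −0.11 for fwd and 0.65 and 0.54 for rev. The orientations did not overlap in either read-out. The difference of fwd minus rev was 1.35 ± 0.10 in the promoter read-out (SE; limma, adjusted p = 1.93e-07) and −0.81 ± 0.16 in the enhancer read-out (SE; limma, adjusted p = 0.00482). With pGAPDH it was 0.41 and −0.37 and with pMYC in set 1 1.22 and −0.33, each called. With pMYC in set 2 it was 1.27, called, and −0.36, not called, where the enhancer replicates of rev were far apart at −0.39 and 0.62 on 71 RNA reads. KUUUT0020 showed the converse in part, with rev stronger in all 4 promoter tables and fwd stronger by 0.34 ± 0.09 in the pGAPDH enhancer read-out (SE; limma, adjusted p = 0.00937).

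Whether the orientation difference itself differed between promoter and enhancer read-out was tested with limma on the fwd minus rev value of each library, a test added after these values were seen. It called 20 loci with a larger fwd minus rev value in the promoter read-out (28.7% of all loci) and 9 with a smaller one (15.1%) of 72 with pGAPDH. The counts were 7 (13.4%) and 3 (5.57%) of 67 with pAPOBEC3F, 10 (13.6%) and 1 (4.54%) of 66 with pMYC in set 2, and 29 (46.0%) and 9 (14.4%) of 64 in set 1. The sums were 29 (43.7%), 10 (19.0%), 11 (18.1%) and 38 (60.4%), and the shares of KUUUT loci were again near those of all loci. KUUUT0048 was called in every one of these 4 tests, with a promoter minus enhancer value of 0.78 ± 0.09 with pGAPDH, 2.16 ± 0.22 with pAPOBEC3F, 1.63 ± 0.39 with pMYC in set 2 and 1.55 ± 0.07 in set 1 (SE; limma, largest adjusted p = 0.0318). KUUUT0020 was called the other way with pGAPDH (−0.51 ± 0.11, SE), pAPOBEC3F (−1.48 ± 0.15) and pMYC in set 1 (−0.64 ± 0.07), and not with pMYC in set 2 (−0.54 ± 0.15, limma, adjusted p = 0.0504). KUUUT0029 in set 1 had the largest negative value, −1.49 ± 0.09 (SE; limma, adjusted p = 4.42e-05), from a promoter difference of −1.30 and an enhancer difference of 0.20. The counts for pMYC in set 2 were 1 without promoter DNA replicate 1 or without promoter DNA replicate 2, 3 without promoter RNA replicate 1 or without promoter RNA replicate 2, 2 without enhancer DNA replicate 1, 3 without enhancer DNA replicate 2 and 20 without enhancer RNA replicate 1 or without enhancer RNA replicate 2. For pGAPDH they were 18 without promoter DNA replicate 2 or without enhancer RNA replicate 1. For pAPOBEC3F they were 5 without promoter DNA replicate 1 or without promoter DNA replicate 2 or enhancer DNA replicate 1, and 18 without enhancer RNA replicate 1.

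The read-outs were next compared element by element, after each table was centred on the median of the elements both tables hold, since tables were normalised separately. Relative to that median, more KUUUT elements were called towards the promoter than towards the enhancer read-out with pAPOBEC3F and pMYC, and fewer with pGAPDH. limma called 59 of 144 higher in the promoter read-out (36.0% of all elements) and 14 lower (18.9%) with pAPOBEC3F, 39 of 139 higher (29.2%) and 18 lower (17.9%) with pMYC in set 2, and 52 of 130 higher (33.9%) and 29 lower (32.9%) in set 1. With pGAPDH it called 35 of 149 higher (28.5%) and 51 lower (28.0%). The surplus towards the promoter read-out with pAPOBEC3F and pMYC was also that of all elements, though slight in set 1. With pGAPDH the shares of all elements were near equal. Whether KUUUT shares differ from those of all elements was not tested. In either direction the counts were 86 with pGAPDH (56.5% of all elements), 73 with pAPOBEC3F (54.9%), 57 with pMYC in set 2 (47.1%) and 81 in set 1 (66.8%), and whether they differ between minimal promoters was not tested. The count of 57 was 37 without promoter DNA replicate 1.

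Across KUUUT elements the read-outs were correlated, with r of 0.654 with pGAPDH (n = 149), 0.703 with pAPOBEC3F (n = 144), 0.805 with pMYC in set 2 (n = 139) and 0.807 in set 1 (n = 130). Over all elements r was 0.616, 0.765, 0.835 and 0.855 in the same order. The points share plasmids and cells, and no test was made. The slope of the promoter on the enhancer log2 ratio was 1.26, 1.35, 1.38 and 1.42 in the same order. Strong elements thus stood further from the median in the promoter read-out. Over all elements the slopes were 1.22, 1.58, 1.45 and 1.32, also above 1.

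KUUUT0015.fwd was the most promoter-biased element in 3 of the 4 comparisons. Its centred log2 ratio was 3.11 in the promoter read-out and 0.59 in the enhancer read-out with pAPOBEC3F, a difference of 2.52 ± 0.09 (SE; limma, adjusted p = 8.75e-10). The difference was 1.68 with pMYC in set 2 and 1.98 ± 0.08 in set 1 (SE; limma, adjusted p = 8.85e-13). With pGAPDH it was 0.76, where KUUUT0019.rev had the largest one, 0.80. KUUUT0018.fwd was active in the promoter read-out and uncalled in the enhancer read-out with pGAPDH and pAPOBEC3F. Its promoter ratios were 0.58 and 0.51 with pGAPDH and 2.48 and 2.48 with pAPOBEC3F, while its enhancer ratios were −0.04 and −0.11, and 0.15 and −0.08, neither called in the authors' deposited tables. The differences were 0.69 with pGAPDH and 2.30 with pAPOBEC3F, both called. With pMYC its enhancer ratio was called higher in the authors' deposited tables, at 0.46 ± 0.06 in set 2 and 0.80 ± 0.03 in set 1, beside promoter ratios of 2.05 ± 0.05 and 2.43 ± 0.07.

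KUUUT0048.fwd was split the same way, and with pGAPDH it was called lower in both of the authors' deposited tables. Its centred difference between promoter and enhancer read-out was 1.99 with pAPOBEC3F, 1.44 with pMYC in set 2 and 1.67 ± 0.11 in set 1 (SE; limma, adjusted p = 4.07e-10). In set 1 its promoter ratios were 2.11 and 1.94, and its enhancer ratios 0.14 and 0.25. By call alone, KUUUT0008.fwd and KUUUT0026.rev were the 2 elements of 115 called higher in all 4 promoter tables and no enhancer table of the authors' deposited tables, at 0.12 to 0.48 and 0.14 to 0.84 in the promoter tables. KUUUT0026.rev had enhancer means of 0.11 to 0.52 that were not called, so the absence of a call there does not show the absence of activity.

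Among the largest called shifts towards the enhancer read-out were several of rev elements. KUUUT0082.rev, tested in set 1 only, had promoter ratios of −0.02 and −0.11 and enhancer ratios of 0.96 and 0.94, a centred difference of −1.18 ± 0.08 (SE; limma, adjusted p = 8.93e-10). In the same tables the partner element KUUUT0082.fwd was at 0.70 and 0.44 in the promoter read-out and 1.01 and 1.02 in the enhancer read-out, and with pGAPDH it was at −0.96 and −1.07, and 0.34 and −0.02. KUUUT0036.rev was called lower in the promoter read-out and higher in the enhancer read-out in the authors' deposited tables of pGAPDH, at −1.08 and −1.13 against 0.27 and 0.10. Its centred difference was −1.22 ± 0.06 (SE; limma, adjusted p = 8.92e-13). KUUUT0053.rev, with −1.27 ± 0.05, and KUUUT0017.rev, with −1.36 ± 0.19, stood beside it with pGAPDH. With pAPOBEC3F the largest called shifts towards the enhancer read-out were −0.94 for KUUUT0102.rev and −0.91 for KUUUT0001.rev.

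Calls in the authors' deposited tables of the same minimal promoter agreed for many elements. Joint calls of the read-outs were counted for KUUUT elements only. Without the shares over all elements, they show nothing particular to KUUUT. Both read-outs were called higher for 29 of 149 KUUUT elements with pGAPDH, 50 of 144 with pAPOBEC3F, 68 of 139 with pMYC in set 2 and 85 of 130 in set 1 in the authors' deposited tables. The promoter read-out alone was called higher for 26, 50, 25 and 14 in the same order. Opposite calls were rare, with the promoter lower and the enhancer higher for 3, 1, 2 and 1 elements, and the reverse for 1 with pGAPDH in the authors' deposited tables. Both were called lower for 24 elements with pGAPDH in the authors' deposited tables.

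The minimal promoters were compared within set 2, relative to the median element that both tables hold. Their values from 1 library entered the fit as separate values, without a term for the library, so these p-values ignore that sharing. Relative to that median, the strong KUUUT elements stood far lower with pGAPDH than with pMYC. Tables were scaled separately, so activity on a common scale was not compared between minimal promoters. In the shared promoter libraries of replicate 1, pGAPDH had 9080385 RNA and 5516308 DNA reads over all elements. There pMYC had 2116336 and 3802678, and pAPOBEC3F 1679872 and 3428376. RNA reads thus exceeded DNA reads with pGAPDH only, and a lower ratio in its table does not show less RNA per plasmid. In the promoter read-out limma called 18 of 137 KUUUT elements higher with pGAPDH (28.6% of all elements) and 81 lower (43.1%), 99 in either direction (71.7%). KUUUT0020.rev had a centred log2 ratio of 1.15 with pGAPDH and 3.18 with pMYC, a difference of −2.03 ± 0.07 (SE; limma, adjusted p = 5.8e-11). KUUUT0020.fwd followed with −1.70 and KUUUT0044.fwd with −1.61. The slope of the pGAPDH on the pMYC log2 ratios was 0.417 with r of 0.708 over 137 elements, which share their libraries and cells. Over all elements the slope was 0.426 with r of 0.837. By the authors' deposited tables, KUUUT elements called higher with both numbered 48, with 17 lower with both. Another 26 were lower with pGAPDH and higher with pMYC, and shares over all elements are not given for these joint calls.

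Those 26 elements were called higher with pMYC and lower with pGAPDH at the zero points of the authors' deposited tables. A lower call does not show repression, since it depends on that zero point. Relative to the median element, KUUUT0140.fwd was at −0.03 with pGAPDH. KUUUT0140.fwd had promoter signals of 403 and 403 in RNA and 439 and 415 in DNA with pGAPDH, log2 ratios of −0.13 and −0.05, against 1.56 and 1.49 with pMYC. KUUUT0029.rev had −0.94 and −0.89 with pGAPDH, against 0.81 and 0.83 with pMYC. KUUUT0061.fwd had −1.12 and −1.13, against 0.44 and 0.58. Replicates of the minimal promoters did not overlap for any of these. Relative to the median element, KUUUT0029.rev differed by −1.44 ± 0.11, KUUUT0061.fwd by −1.34 ± 0.07 and KUUUT0140.fwd by −1.32 ± 0.07 (SE; limma, largest adjusted p = 1.26e-07). The single element called higher with pGAPDH and lower with pMYC in the authors' deposited tables was KUUUT0045.rev, with promoter ratios of 0.08 and 0.08 with pGAPDH, against −0.69 and −0.63 with pMYC. Its difference of 1.03 ± 0.06 (SE; limma, adjusted p = 5.28e-09) was the largest towards pGAPDH, ahead of 0.48 for KUUUT0142.rev and 0.48 for KUUUT0138.fwd.

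Fewer elements were called in the enhancer read-out, among KUUUT elements and among all elements alike. There limma called 6 of 137 KUUUT elements higher with pGAPDH (6.32% of all elements) and 26 lower (20.6%), 32 in either direction (26.9%). The slope of pGAPDH on pMYC was 0.381, beside 0.338 over all elements. The 32 calls were 13 without DNA replicate 1 and 14 without DNA replicate 2. KUUUT0020.rev differed by −1.35 ± 0.13 (SE; limma, adjusted p = 1.08e-05), KUUUT0020.fwd by −1.05 and KUUUT0140.fwd by −0.97. The last was called lower with pGAPDH, at −0.25 and −0.13, and higher with pMYC, at 1.13 and 0.82, in the authors' deposited tables. KUUUT0031.rev had the largest difference towards pGAPDH, 0.66, where its pMYC value of −0.47 rested on 61 RNA reads.

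With pAPOBEC3F the KUUUT elements, like all elements, ranked much as with pMYC, on a steeper scale. In the promoter read-out limma called 56 of 134 KUUUT elements higher with pAPOBEC3F (35.6% of all elements) and 9 lower (9.39%), 65 in either direction (45.0%). The slope of pAPOBEC3F on pMYC was 1.21 with r of 0.950 over 134 elements of the same libraries. Over all elements it was 1.18 with r of 0.967. KUUUT0140.rev, at 1.19 and 1.01 with pAPOBEC3F and −0.08 and 0.07 with pMYC, had the largest difference, 1.14 ± 0.16 (SE; limma, adjusted p = 0.000114). It was followed by KUUUT0122.fwd with 1.08 ± 0.14 and KUUUT0020.rev with 1.07 ± 0.06. Towards pMYC the largest was −0.57 for KUUUT0046.rev. KUUUT0036.rev was called higher with pAPOBEC3F, at 0.59 and 0.42, and lower with pMYC, at −0.13 and −0.29, in the authors' deposited tables. The 65 calls were 38 without DNA replicate 1 and 35 without DNA replicate 2.

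limma called 0 of 135 KUUUT elements between pAPOBEC3F and pMYC in the enhancer read-out, with 0.0878% of all elements called in either direction. At an unadjusted p under 0.05 there were 15, and 6 adjusted calls were made without RNA replicate 1 and 11 without RNA replicate 2. The pAPOBEC3F enhancer table was the shallowest of the 8 tables in RNA reads. Both comparisons use the same pMYC values. Of the 115 KUUUT elements tested in all tables, 68 were called higher in all 3 promoter tables of pAPOBEC3F and pMYC. In the pGAPDH promoter read-out the authors' deposited table called 38 of these higher and 20 lower and left 10 uncalled. The matching shares of all elements are not given here.

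The pMYC tables of set 2 and set 1 hold 121 tested KUUUT elements in common, measured in different plasmid pools. Promoter ratios were correlated with r of 0.945 and enhancer ratios with r of 0.837 over these elements, which share their names but not their libraries. The slope of set 2 on set 1 was 0.782 in the promoter read-out and 0.646 in the enhancer read-out. Over all shared elements the slopes were 0.840 and 0.790, with r of 0.969 and 0.901. Relative to the median shared element, limma called 3 of 121 higher in set 2 (7.21% of all elements) and 59 lower (35.1%) in the promoter read-out, 62 in either direction (42.3%). For the enhancer read-out it called 0 higher (1.76%) and 35 lower (17.6%), all 35 calls (19.3%) being lower in set 2.

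KUUUT0140.rev was the element most different between the sets, with promoter ratios of −0.08 and 0.07 in set 2 and 1.51 and 1.42 in set 1. Its centred difference was −1.39 ± 0.13 (SE; limma, adjusted p = 4.8e-06), while KUUUT0140.fwd was at 1.56 and 1.49 in set 2 and 1.97 and 1.93 in set 1. KUUUT0140.rev had 158 RNA reads in set 2, against 7176 in set 1. KUUUT0002.rev went the other way, at 0.88 and 0.75 in set 2 and −0.08 and 0.08 in set 1, a difference of 0.89 ± 0.14 (SE; limma, adjusted p = 0.000126). In the enhancer read-out KUUUT0031.rev differed by −1.15 ± 0.19 (SE; limma, adjusted p = 0.00226), KUUUT0094.rev by −1.01 and KUUUT0088.rev by −0.89. The 35 enhancer calls were 56 without RNA replicate 2 of set 2, and 21 without DNA replicate 2 or RNA replicate 1 of set 1.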

How the data were processed

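RNA and DNA barcode libraries of K-562 cells were deposited as 8 tables, 1 per set, minimal promoter and read-out. Per the labels, each technical replicate pooled 5 electroporations, and each biological replicate had 2 of these. The tools fastp, limma and edgeR and the build hg38 are named per the submitters' processing notes, and the remaining steps are not given in the sources used here. The deposited signal columns hold RNA and DNA values of replicates 1 and 2, and 100% were whole multiples of 1 step per column (tolerance 0.02), taken as 1 read. The log2 fold changes, the score columns (moderated t and log odds) and the p-values, per the file headers, were made by the authors with limma. Their adjusted p under 0.05 made a call of RNA against DNA. Log2 ratios per replicate were computed here after adding 0.5 reads.

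Contrasts of orientation, read-out, minimal promoter and set were fitted with limma 3.58.1 (trend) in R 4.3.3 on log2 signals, with Benjamini-Hochberg adjustment over all elements or loci and a threshold of 0.05. The fits were tested on simulated data with independent noise of the variance that the fit itself estimated. Error shared between values of a library and shifts of the zero point were not simulated, so that test does not cover them. Contrasts between tables were centred on the median shared element. No main fit had a term for the library. The test of orientation between read-outs was added after the values were seen. Summaries used Python 3.11.15, numpy 2.4.6, scipy 1.17.1 and pandas 2.3.3. Alternatives were a limma refit of the calls, 5 reads added, a minimum of 10 reads in each DNA library, a replicate block, other zero points and leaving out each library. A planned edgeR count test was not run, because the signals are scaled values and not counts. The 3 plasmid index libraries were not used here.

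KUUUT elements and all lists were chosen with earlier results of these data known. Named elements are, per table, up to 4 highest and 3 lowest called elements, per contrast up to 3 largest called differences in each direction, and up to 10 elements each called higher in all tables or lower in most. A part of these is named. KUUUT0008.fwd, KUUUT0026.rev, KUUUT0053.fwd, KUUUT0082.fwd and KUUUT0148.fwd, values of named elements in further tables, and loci listed for the pattern of their calls were chosen after their values were seen.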

Additional observations from a re-analysis of the deposited data

Results flagged for a closer look

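Some KUUUT elements were called in opposite directions in the authors' deposited tables of 2 conditions, and the difference itself passed limma's adjusted threshold. Those named below are not all elements with opposite calls. In the promoter read-out 26 were called lower with pGAPDH and higher with pMYC, and 1 the reverse. Among these, with the pGAPDH minus pMYC difference, were KUUUT0029.rev (difference −1.44, SE 0.11, limma adjusted p = 1.26e-07), KUUUT0031.rev (−0.50, SE 0.08, limma adjusted p = 7.4e-05), KUUUT0045.rev (1.03, SE 0.06, limma adjusted p = 5.28e-09), KUUUT0048.fwd (−1.21, SE 0.06, limma adjusted p = 1.26e-09), KUUUT0061.fwd (−1.34, SE 0.07, limma adjusted p = 3.98e-09) and KUUUT0140.fwd (−1.32, SE 0.07, limma adjusted p = 5.55e-09). KUUUT0048.fwd was at −0.20 with pGAPDH and 1.01 with pMYC after centring. The centred pGAPDH values of KUUUT0140.fwd (−0.03) and KUUUT0031.rev (−0.08) lay near the median element, so their lower calls lean on the deposited zero point. Those of KUUUT0029.rev (−0.86) and KUUUT0061.fwd (−1.07) lay well below it, and that of KUUUT0045.rev (0.13) lay above.

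In the enhancer read-out pGAPDH minus pMYC gave KUUUT0040.fwd (−0.62, SE 0.14, limma adjusted p = 0.00627) and KUUUT0140.fwd (−0.97, SE 0.13, limma adjusted p = 0.000184). KUUUT0040.fwd was at −0.15 with pGAPDH and 0.47 with pMYC after centring. In the promoter read-out 2 elements were called higher with pAPOBEC3F and lower with pMYC. KUUUT0036.rev was 1 of them (0.74, SE 0.07, limma adjusted p = 5.93e-06). Between set 2 and set 1 with pMYC in the enhancer read-out the element was KUUUT0001.fwd (−0.45, SE 0.11, limma adjusted p = 0.0169), at −0.41 in set 2 and 0.04 in set 1 after centring. Its opposite direction rests on the deposited zero point, since measured from the median of all elements of the table its set 1 value was −0.063.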

How the results depend on the processing

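Counts moved with the zero point and with single libraries. For RNA against DNA, main calls came from the deposited fit and all alternatives from a refit, so these moves include the change of fit. In the pGAPDH enhancer read-out, 26 deposited lower calls stood outside the refit range of 9 to 20. Centred on the median of the table, a limma refit called 37 KUUUT elements lower for pAPOBEC3F, 40 for pMYC in set 2 and 35 in set 1 in the promoter read-out, in place of 16, 19 and 10. In the enhancer read-out it called 12, 20 and 27 lower, in place of 2, 3 and 4, and 47 higher in place of 73 for pMYC in set 2. KUUUT0001.fwd in the set 1 enhancer read-out reversed to −0.063 when centred. With the deposited zero points, 55 elements in place of 32 differed between pGAPDH and pMYC in the enhancer read-out. With 5 reads added, the pAPOBEC3F enhancer read-out gave 1 lower call in place of 2 and 9 orientation calls in place of 4, and with a replicate block 4 lower calls. Deviations of RNA and DNA libraries with the same number correlated at −0.07 to 0.03 in 7 tables and 0.41 in the set 1 enhancer table, and over the 8 tables the numbers were not taken to pair libraries. With the replicate block the set 1 enhancer table gave 96 higher, 4 lower and 21 orientation calls, in place of 96, 4 and 20.

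Leaving out 1 library at a time gave these ranges of higher and lower calls: pGAPDH promoter 52 to 59 and 66 to 69, enhancer 26 to 36 and 9 to 20; pAPOBEC3F promoter 90 to 105 and 12 to 29, enhancer 31 to 67 and 1 to 15; pMYC in set 2 promoter 85 to 98 and 12 to 24, enhancer 54 to 84 and 0 to 8; pMYC in set 1 promoter 87 to 109 and 6 to 17, enhancer 87 to 107 and 0 to 9. Orientation calls, promoter then enhancer, ranged 50 to 55 and 1 to 12 (pGAPDH), 27 to 46 and 0 to 18 (pAPOBEC3F), 29 to 45 and 1 to 12 (pMYC, set 2) and 17 to 57 and 7 to 33 (set 1). Their difference between read-outs ranged 18 to 35, 5 to 18, 1 to 20 and 30 to 43, and read-out calls 72 to 90, 55 to 83, 37 to 69 and 71 to 88. pGAPDH minus pMYC ranged 81 to 110 (promoter) and 13 to 39 (enhancer), pAPOBEC3F minus pMYC 35 to 88 and 0 to 11, and set 2 minus set 1 48 to 74 and 21 to 56. Of 2692 checks of 295 named values, 2522 kept direction and side of the threshold, 146 lost the call, 23 gained one and 1 reversed. Named values were mostly picked as the most extreme called ones of these data, so these checks do not measure how stable other calls are. The cause of these moves was not tested. The edgeR test was not run. The enhancer tables of pAPOBEC3F and of pMYC in set 2 had the fewest RNA reads, and the effect of depth was not tested.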
